A study of Mus musculus with 9 samples.

Results

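The NF-kappaB subunits and inhibitors were examined as a family of 10 mouse genes: Nfkb1, Nfkb2, Rel, Rela, Relb, Nfkbia, Nfkbib, Nfkbie, Nfkbiz and Tnfaip3. Members were all probe sets of the Affymetrix expression table whose only gene symbol was 1 of these names. That gave 19 of 45037 probe sets, for 9 of 18193 genes. Nfkb1 was not analysed here, because no probe set was paired with that symbol alone in the annotation used. The number of probe sets was 5 for Nfkbia, 3 for Nfkbiz, 2 each for Nfkb2, Nfkbib, Nfkbie and Tnfaip3, and 1 each for Rel, Rela and Relb.

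The 9 arrays held RNA of CD11b+ cells sorted from lungs of female BALB/c 4get mice, 6 to 8 weeks old, in which green fluorescent protein reports Il4 expression. All mice had received 0.5 µg of recombinant IL-25 in 50 µL of PBS into the trachea each day for 4 days, so every group carried the treatment and no untreated group was compared. Each sample was a pool of cells from 4 donor mice, of which 400000 were sorted and 50 ng of RNA was amplified. T2M (type 2 myeloid) cells, on 3 arrays, were sorted as reporter-positive, IL-5rα-, F4/80+, MHCII low and Gr-1 intermediate. The other labels had 2 arrays each and were reporter-negative: Eosinophils (IL-5rα+, F4/80-, MHCII low, Gr-1 high), Neutrophils (IL-5rα-, F4/80-, MHCII low, Gr-1+) and Macrophages (IL-5rα-, F4/80+, MHCII+, Gr-1-).

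NF-kappaB is a family of dimeric transcription factors that drives inflammatory genes in myeloid cells after signals such as Toll-like receptor ligands, IL-1 and TNF. Rela, Rel and Relb carry a transactivation domain, and Nfkb2 encodes the p100 precursor of p52. The classical IkappaB proteins, encoded by Nfkbia, Nfkbib and Nfkbie, hold dimers in the cytoplasm until the IKK complex marks them for degradation. Nfkbiz encodes IkappaB-zeta, a nuclear protein that binds NF-kappaB at a subset of its targets, including Il6. Tnfaip3 encodes A20, a ubiquitin-editing enzyme that dampens signalling upstream of IKK. Nfkbia, Nfkbiz and Tnfaip3 are themselves well known NF-kappaB targets.

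Cell type markers did not follow every label, so each population is called by its GEO label only. The 8 measured eosinophil markers averaged 9.35 to 9.73 (log2 level) on T2M arrays, 6.06 to 7.08 on eosinophil-labelled arrays, 5.56 to 7.23 on neutrophil-labelled arrays and 4.48 to 4.64 on macrophage-labelled arrays. The 11 neutrophil markers were highest on the eosinophil-labelled arrays, at 11.42 to 11.91, against 7.66 to 9.07 on the neutrophil-labelled arrays. The mean of the 11 macrophage and monocyte markers was highest on the neutrophil-labelled arrays, at 10.77 to 10.80. Not every gene of that list did so: Cd68, Cx3cr1 and Ccr2 had their highest mean in Macrophages, and Adgre1 and C1qb in T2M. The mean of the 8 dendritic cell markers was highest on the macrophage-labelled arrays, at 10.07 to 10.29. Lists of other cells also moved with T2M against Macrophages: alveolar macrophage markers were at 9.20 to 9.93 against 7.34 to 7.50, epithelial markers at 8.22 to 9.32 against 6.67 to 6.92, and endothelial and stromal markers at 7.05 to 7.18 against 5.49 to 5.64. Erythroid and platelet markers were at 5.67 to 5.97 against 4.31 to 4.49, and mast cell and basophil markers at 5.07 to 6.31 against 4.72 to 4.85. B cell markers were higher in Macrophages (7.80 to 8.06) than in T2M (7.30 to 7.75), while T cell markers (6.89 to 7.19 in T2M, 6.45 to 6.78 in Macrophages) and NK cell markers (6.20 to 7.23 and 6.04 to 6.25) lay closer together. Replicates of a label correlated at 0.915 (Neutrophils) to 0.994 (Macrophages), and Neutrophils replicate 2 correlated at 0.953 to 0.954 with the macrophage-labelled arrays. The labels give the macrophage-labelled arrays as separate pools, and whether the same RNA was on both was not tested. Averaging these into 1 sample leaves Macrophages without replicates, which alone can change the calls, so that fit cannot show whether RNA was shared. If RNA was shared, p-values against Macrophages would rest on technical spread. All comparisons use 1 estimate of the spread, so p-values of the others would also be affected. The 3′ minus 5′ difference of the actin control probe sets was 0.61 on T2M replicate 1 and 0.54 on Eosinophils replicate 1, against -0.10 to 0.03 on the others. The same difference for Gapdh was 2.35 to 3.43 on T2M arrays, 1.09 to 2.41 on eosinophil-labelled, 1.45 to 2.20 on neutrophil-labelled and 1.02 to 1.20 on macrophage-labelled arrays. The raised actin difference was on 1 array each of T2M and Eosinophils. Results without both arrays are given for Rela and Relb, and changes for other genes are not all given. The Gapdh difference and the marker levels moved with the labels, and their part in the results was not tested. In such bulk samples, fewer cells of a type and less RNA per cell cannot be told apart.

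**Figure D1:**
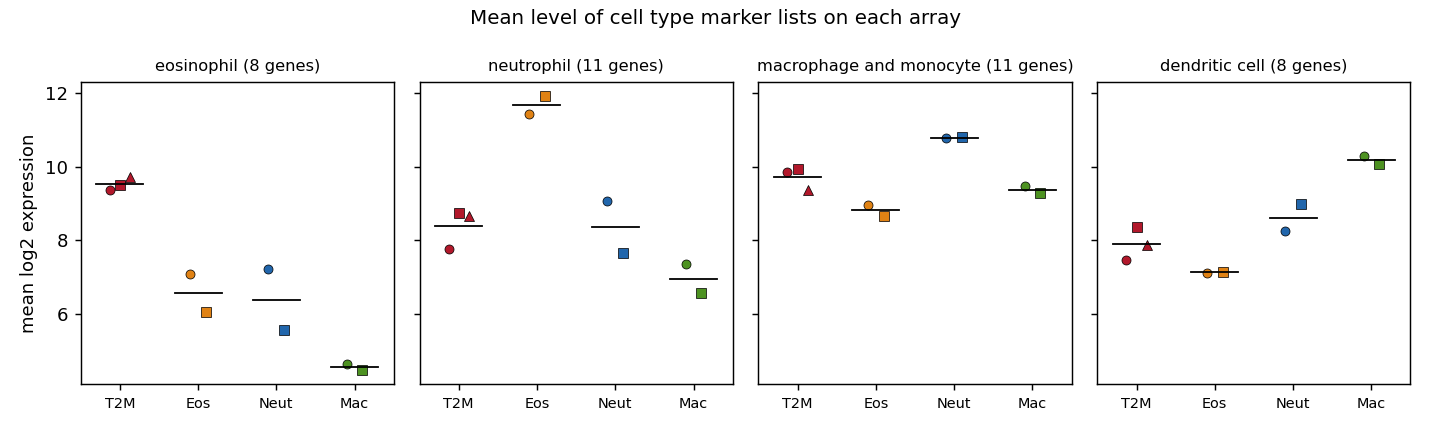
Mean log2 expression of 4 lists of cell type markers, with 1 point per array, marker shape for the replicate number and a bar at the mean of each label (T2M, Eos for Eosinophils, Neut for Neutrophils, Mac for Macrophages). Neutrophil markers peaked on eosinophil-labelled arrays (11.42 to 11.91) and eosinophil markers on T2M arrays (9.35 to 9.73).

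Among the 9 genes, the inhibitor genes Nfkbia and Tnfaip3 and the nuclear regulator gene Nfkbiz were called as different among the labels. Nfkbia was the least stable call, and Nfkbib, Nfkbie and the 4 subunits did not pass the test. A moderated F test in limma asked whether a gene differed among the 4 labels at all, with Benjamini-Hochberg adjustment over all 18193 genes. It called 3 of 9 members at an adjusted p under 0.05, where 17.8% of all genes were called. By role these were 1 of 3 classical inhibitors (Nfkbia, adjusted p = 0.0345), the nuclear regulator Nfkbiz (adjusted p = 0.00262), the ubiquitin-editing enzyme Tnfaip3 (adjusted p = 0.0125) and 0 of 4 subunits. For the members not called, the limma adjusted p was 0.145 for Nfkbie, 0.159 for Rela, 0.174 for Relb, 0.184 for Nfkbib, 0.425 for Rel and 0.686 for Nfkb2. The call of Nfkbiz was kept in all 19 alternatives (adjusted p up to 0.0276). That of Nfkbia was lost in 10 of 19, including 6 of 9 fits without 1 array (those without either eosinophil-labelled array, either macrophage-labelled array, T2M replicate 2 or T2M replicate 3), with adjusted p from 0.0242 to 0.177 over the 9. That of Tnfaip3 was lost in 4 of 19, including the fit without Macrophages replicate 2 (adjusted p = 0.0805). Relb was called without Eosinophils replicate 1 (adjusted p = 0.045) and Nfkbie without Neutrophils replicate 2 (adjusted p = 0.00998), all in limma. Of the 9 genes, 8 had their highest mean on the eosinophil-labelled arrays, and 4 had their lowest on T2M arrays. The shares of all genes with such a peak or low were not computed, so these counts have no baseline.

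Between pairs of labels, every call of a member was of Nfkbia, Nfkbiz or Tnfaip3, each higher in T2M or eosinophil-labelled cells. T2M against Macrophages gave 2 members higher and 0 lower (17.2% of all genes called, and 6.53% called higher). Eosinophils against Neutrophils gave 2 higher and 0 lower (7.88% called, 3.55% higher), and Eosinophils against Macrophages gave 3 higher and 0 lower (17.4% called, 5.89% higher). T2M against Eosinophils gave 0 calls in limma (4.46% of all genes called). T2M against Neutrophils also gave 0 (2.82% called), as did Neutrophils against Macrophages (2.26% called). These comparisons share arrays, so they are not independent of each other.

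**Figure D2:**
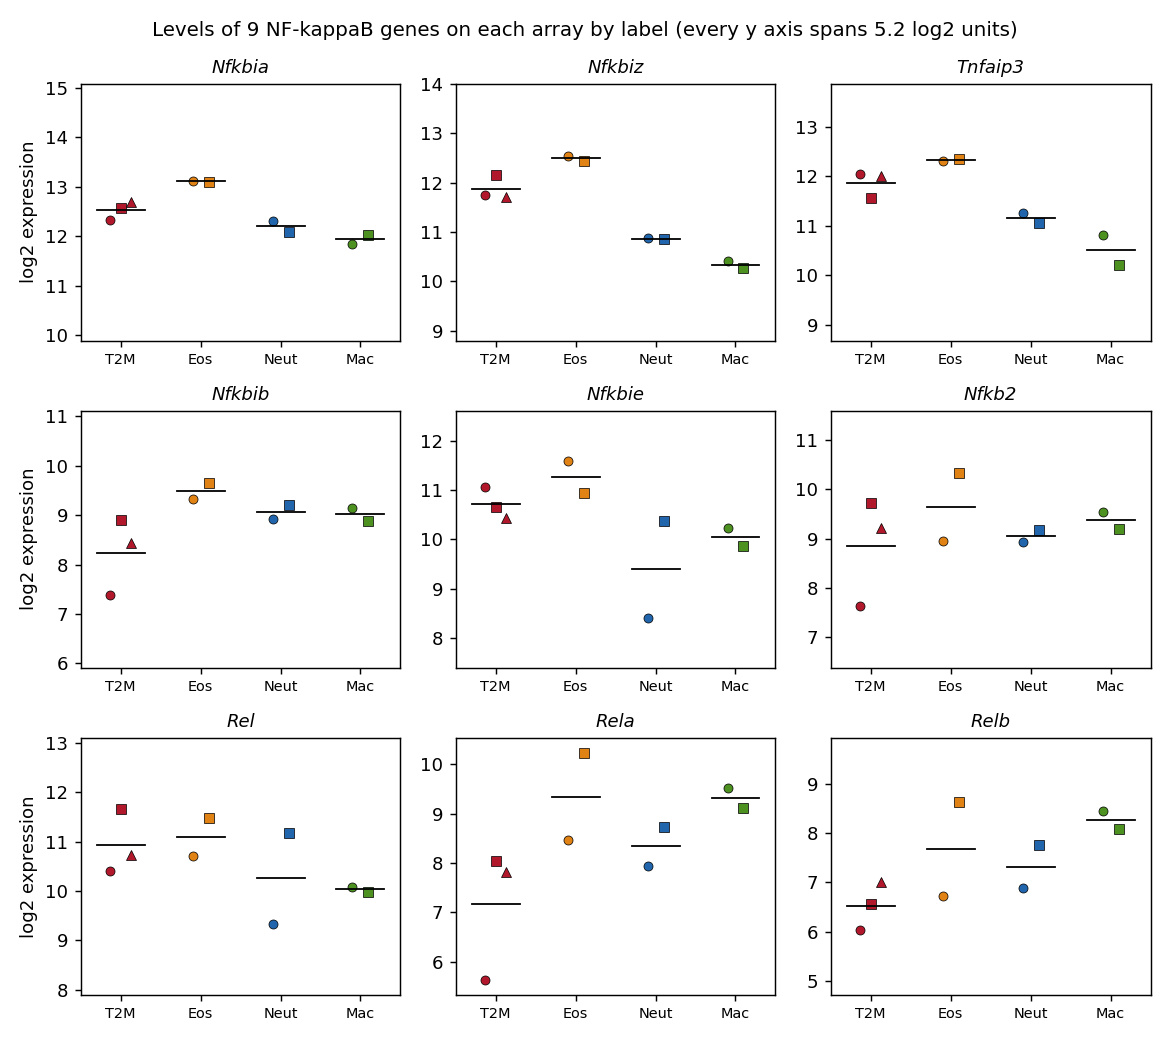
Log2 expression of 9 NF-kappaB genes on each of 9 arrays, with 1 point per array, marker shape for the replicate number and a bar at the mean of each label; each y axis spans the same number of log2 units. On the probe sets used, Nfkbia, Nfkbiz and Tnfaip3 separate all 4 labels without overlap, although several of these differences were not called. Each of these genes also had a probe set, not shown here, on which T2M and macrophage-labelled arrays overlapped. The share of all genes that separate in this way was not computed. Rela, Relb and Nfkb2 spread widely within T2M and Eosinophils.

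**Figure D3:**
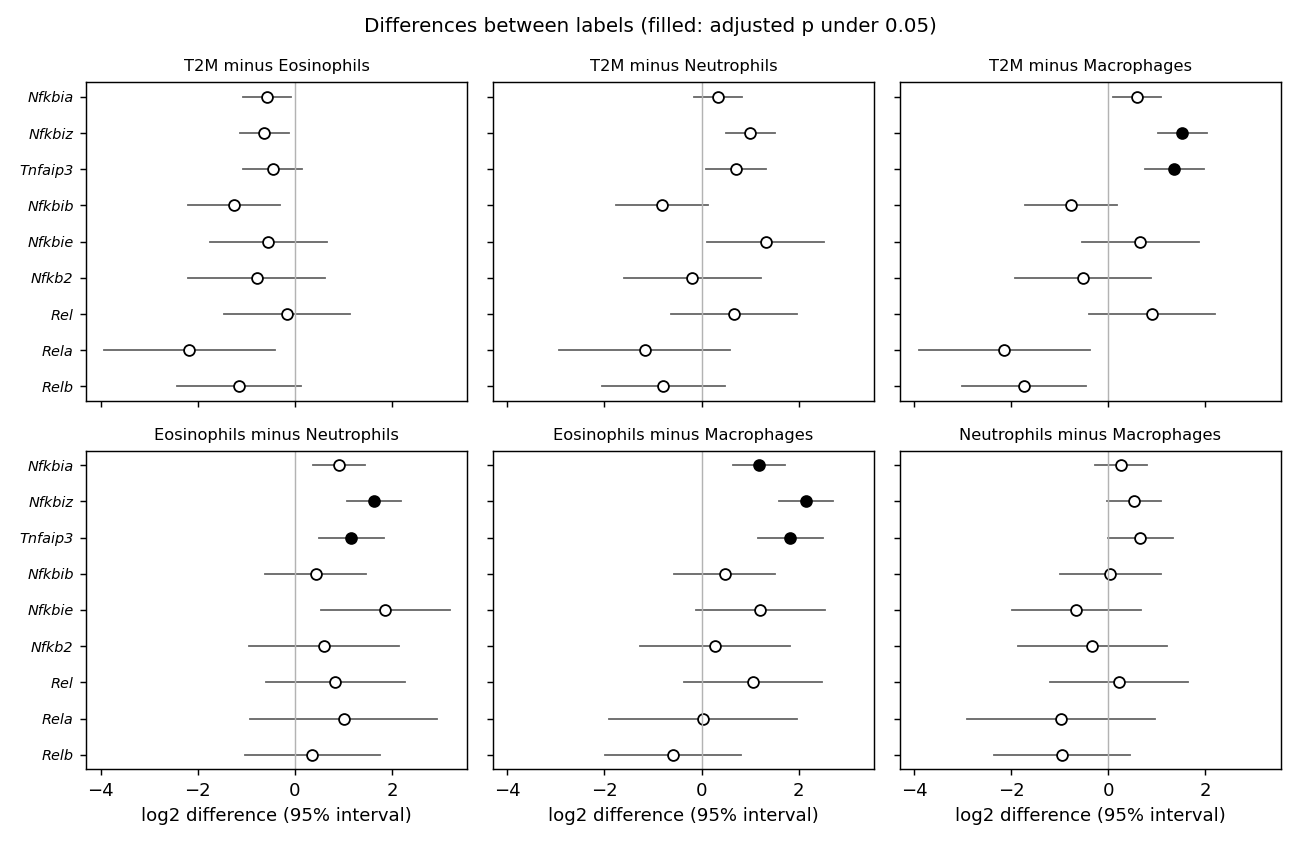
Log2 differences between labels for the same genes, 1 panel for each of 6 comparisons, with 95% intervals from limma and filled points where the adjusted p was under 0.05. Filled points occur for Nfkbiz and Tnfaip3 in 3 panels and for Nfkbia in Eosinophils minus Macrophages. In T2M minus Eosinophils all 9 points lie below 0, though none is filled.

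Nfkbia, which encodes IkappaBα, the inhibitor that NF-kappaB resynthesises to end its own activation, was highest in eosinophil-labelled cells. Its log2 level was 12.34, 12.57 and 12.70 on T2M arrays, 13.13 and 13.10 on eosinophil-labelled arrays, 12.31 and 12.10 on neutrophil-labelled arrays and 11.85 and 12.02 on macrophage-labelled arrays. The arrays of no pair of labels overlapped, although the lowest T2M array lay close to the highest neutrophil-labelled array. With so few arrays a label, uncalled differences also showed no overlap, and the share of all genes without overlap was not computed. Means were 12.54 ± 0.18 (SD, n = 3) in T2M, 13.11 ± 0.02 (n = 2) in Eosinophils, 12.20 ± 0.15 (n = 2) in Neutrophils and 11.94 ± 0.12 (n = 2) in Macrophages. Eosinophils exceeded Macrophages by 1.18 on the log2 scale (2.26-fold, SE 0.23, limma adjusted p = 0.0119). That call ended when either eosinophil-labelled array was left out (adjusted p = 0.0546 without replicate 1 and 0.0538 without replicate 2) or either macrophage-labelled array (0.121 and 0.0743). Eosinophils minus Neutrophils, at 0.91 (SE 0.23), did not pass (limma adjusted p = 0.0529). T2M cells lay between, with differences of -0.58 from Eosinophils (adjusted p = 0.205), 0.33 from Neutrophils (adjusted p = 0.534) and 0.60 from Macrophages (adjusted p = 0.0874), none called by limma. The neighbouring Neutrophils and Macrophages differed by 0.27 (95% interval -0.27 to 0.80), within the error of the fit.

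The other probe sets of Nfkbia gave larger differences between T2M and Macrophages than the brightest, which stood for the gene. In a limma fit over all 45037 probe sets, 3 of its 5 probe sets were called higher in T2M than in Macrophages: 1438157_s_at by 1.73 (adjusted p = 0.00561), 1420088_at by 1.16 (adjusted p = 0.0112) and 1449731_s_at by 0.74 (adjusted p = 0.0432). In that fit 12.6% of all probe sets were called between these labels, and 5 of 19 member probe sets. All 5 probe sets put Eosinophils highest and Macrophages lowest, and 4 of them were called between these labels, with 1448306_at, whose T2M arrays spread most (SD 1.13), the exception. On 1448306_at, T2M replicate 1 (10.23) lay below both macrophage-labelled arrays (10.72 and 10.46). With the mean over all Nfkbia probe sets, T2M exceeded Macrophages by 1.03 (limma adjusted p = 0.0159), so whether this difference passes depends on the probe sets taken.

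Nfkbiz had the largest called differences in the family. Its log2 level was 11.74, 12.15 and 11.71 on T2M arrays, 12.54 and 12.45 on eosinophil-labelled arrays, 10.87 and 10.86 on neutrophil-labelled arrays and 10.41 and 10.27 on macrophage-labelled arrays. All T2M and eosinophil-labelled arrays thus lay above all neutrophil-labelled and macrophage-labelled ones. Means were 11.87 ± 0.24 (SD, n = 3), 12.49 ± 0.07, 10.86 ± 0.01 and 10.34 ± 0.10 (n = 2 each) in the same order. In limma, Nfkbiz was 2.89-fold higher in T2M than in Macrophages (log2 difference 1.53, SE 0.22, adjusted p = 0.00401). It was 4.45-fold higher in Eosinophils than in Macrophages (2.15, SE 0.24, adjusted p = 0.00111) and 3.10-fold higher in Eosinophils than in Neutrophils (1.63, SE 0.24, adjusted p = 0.0072). T2M minus Neutrophils, at 1.01, narrowly missed the threshold (limma adjusted p = 0.0556), T2M minus Eosinophils was -0.63 (adjusted p = 0.179) and Neutrophils minus Macrophages was 0.52 (adjusted p = 0.284).

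The probe sets of Nfkbiz agreed on the eosinophil-labelled peak but not on T2M against Macrophages. Probe set 1417483_at, which stood for the gene, gave the 1.53 above. Probe set 1457404_at had means of 9.02 in T2M, 10.89 in Eosinophils, 7.67 in Neutrophils and 8.78 in Macrophages, so T2M exceeded Macrophages by 0.24 (limma adjusted p = 0.545 over all probe sets) and Neutrophils were lowest. By that probe set T2M fell below Eosinophils by a called difference of -1.87 (adjusted p = 0.0136), the only 1 of 19 member probe sets called between these labels, where 3.16% of all probe sets were called. Probe set 1448728_a_at gave 0.42 for T2M minus Macrophages (adjusted p = 0.593). On 1457404_at and 1448728_a_at the T2M and macrophage-labelled arrays overlapped. Eosinophils exceeded Macrophages by 2.11 to 2.35 in all 3 probe sets, each called (limma adjusted p = 0.00164, 0.00427 and 0.037), among 8 member probe sets called in that comparison (12.9% of all). Eosinophils minus Neutrophils was called for 4 of 19 member probe sets (5.68% of all), among them 1457404_at at 3.22 (limma adjusted p = 0.00269). Fitted on the compared arrays alone, Eosinophils minus Neutrophils of the gene was not called (adjusted p = 0.09). The T2M call against Macrophages also ended when either macrophage-labelled array was left out (adjusted p = 0.0529 without replicate 1 and 0.0609 without replicate 2).

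Tnfaip3 followed the same order of labels as Nfkbia and Nfkbiz. The log2 level of this gene was 12.06, 11.56 and 12.00 on T2M arrays, 12.32 and 12.35 on eosinophil-labelled arrays, 11.27 and 11.07 on neutrophil-labelled arrays and 10.81 and 10.21 on macrophage-labelled arrays. Again the arrays of no pair of labels overlapped, and the macrophage-labelled arrays differed most from each other. Means were 11.87 ± 0.27 (SD, n = 3), 12.33 ± 0.03, 11.17 ± 0.14 and 10.51 ± 0.43 (n = 2 each). T2M exceeded Macrophages 2.57-fold (log2 difference 1.36, SE 0.27, limma adjusted p = 0.0128), a call that ended without either macrophage-labelled array (0.0529 and 0.139). Eosinophils exceeded Macrophages 3.54-fold (1.82, SE 0.29, adjusted p = 0.00471 in limma), and this call ended without Macrophages replicate 2 (adjusted p = 0.0546). Eosinophils exceeded Neutrophils 2.24-fold (1.17, SE 0.29) just inside the threshold (limma adjusted p = 0.0479), a call lost in 8 of 9 fits that left out 1 array (adjusted p = 0.0547 to 0.167), all but that without T2M replicate 1. T2M cells did not pass against Eosinophils (-0.46, adjusted p = 0.465) or Neutrophils (0.71, adjusted p = 0.231), nor Neutrophils against Macrophages (0.66, adjusted p = 0.274). The second probe set of Tnfaip3, 1450829_at, had means of 8.34 in T2M, 9.03 in Eosinophils, 7.71 in Neutrophils and 7.07 in Macrophages. That is the same order of labels, but limma called none of its differences, at an SE of 0.64 for the comparisons with T2M. On this probe set T2M replicate 1 (7.21) lay below Macrophages replicate 1 (7.32), so those labels overlapped.

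**Figure D4:**
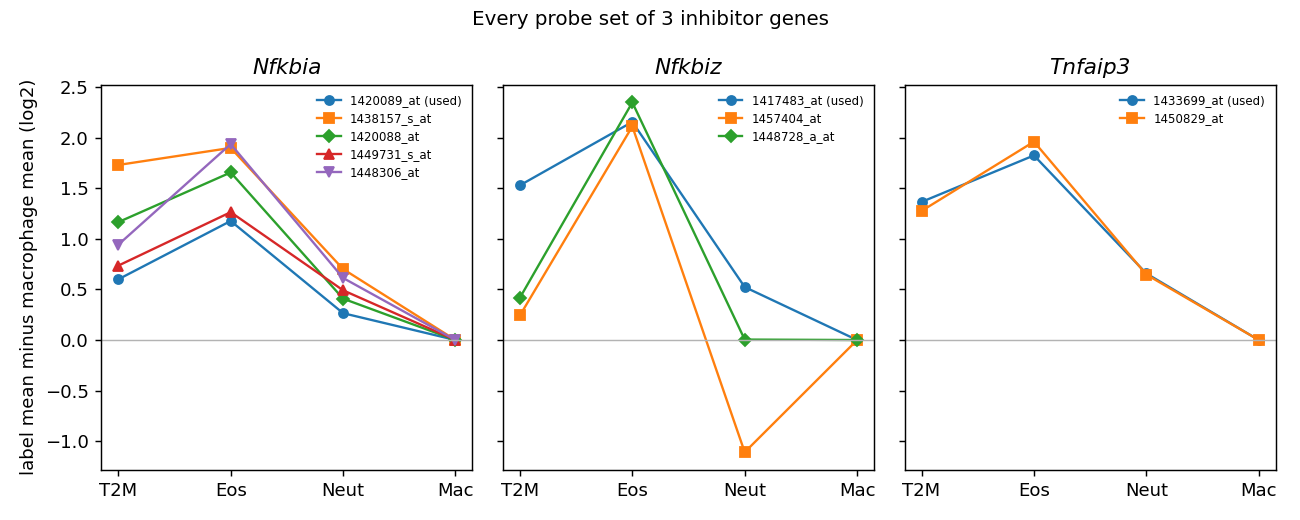
Label means of every probe set of Nfkbia (5), Nfkbiz (3) and Tnfaip3 (2), each minus its macrophage mean, on the log2 scale; lines only join the points of 1 probe set, and "used" marks the probe set that stood for the gene. The Nfkbiz probe sets differ in T2M (0.24 to 1.53 above Macrophages), while all 3 put Eosinophils 2.11 to 2.35 above Macrophages.

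Promoters are shown because Nfkbia, Tnfaip3 and other members are known targets of the factor they regulate. RefSeq (build GRCm38.p6) gave the 250 bases before the start site for 7 of 9 members, at 10 start sites. Both strands were searched for the NF-kappaB consensus. A match was found at 7 of 10 start sites, for 5 members, against 7.25% of 32851 windows of the same length, and 1.03% of those held 2 or more. These are matches of letters and no evidence of binding, and 2 of the 3 Nfkb2 windows overlap. The windows below, read 5′ to 3′ on the gene's strand with matches in capitals, are those of Nfkbia and Tnfaip3, the called members with an entry, of Rel as a subunit, and of the classical inhibitors Nfkbie, with a match, and Nfkbib, with none.
Nfkbia, chr12:55492648-55492897, minus strand: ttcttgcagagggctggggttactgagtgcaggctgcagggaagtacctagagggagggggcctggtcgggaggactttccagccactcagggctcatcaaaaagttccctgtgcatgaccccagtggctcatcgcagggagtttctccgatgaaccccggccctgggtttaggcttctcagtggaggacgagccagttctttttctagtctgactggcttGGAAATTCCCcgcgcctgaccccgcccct
Tnfaip3, chr10:19015411-19015660, minus strand: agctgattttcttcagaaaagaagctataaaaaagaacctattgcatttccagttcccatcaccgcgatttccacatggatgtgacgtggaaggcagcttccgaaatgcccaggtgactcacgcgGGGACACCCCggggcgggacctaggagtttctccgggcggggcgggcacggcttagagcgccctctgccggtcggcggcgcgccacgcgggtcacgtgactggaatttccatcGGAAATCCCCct
Rel, chr11:23770970-23771219, minus strand: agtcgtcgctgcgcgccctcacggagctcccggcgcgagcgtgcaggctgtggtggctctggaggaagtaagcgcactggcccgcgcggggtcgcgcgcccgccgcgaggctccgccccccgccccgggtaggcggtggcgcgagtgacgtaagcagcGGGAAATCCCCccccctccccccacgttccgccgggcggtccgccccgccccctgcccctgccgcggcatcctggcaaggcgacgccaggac
Nfkbie, chr17:45555450-45555699, plus strand: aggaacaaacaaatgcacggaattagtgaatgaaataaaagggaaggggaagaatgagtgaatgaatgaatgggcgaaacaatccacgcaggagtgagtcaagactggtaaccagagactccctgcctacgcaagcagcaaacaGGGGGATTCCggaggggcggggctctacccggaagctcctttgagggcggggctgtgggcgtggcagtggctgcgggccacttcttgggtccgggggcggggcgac
Nfkbib, chr7:28766645-28766894, minus strand: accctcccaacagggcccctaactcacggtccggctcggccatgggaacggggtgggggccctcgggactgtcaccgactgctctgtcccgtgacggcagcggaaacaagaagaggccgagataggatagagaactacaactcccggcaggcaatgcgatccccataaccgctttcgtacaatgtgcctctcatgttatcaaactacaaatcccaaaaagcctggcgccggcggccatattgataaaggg
The Nfkbia match began 29 bases before the start site, and those of Tnfaip3 began 125 and 12 bases before it. Rel had a pair of overlapping matches that began 92 and 91 bases before its start, and the Nfkbie match began 106 bases before. Rela and the other start site of Tnfaip3 also had no match in this window.

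Nfkbib and Nfkbie, which encode the classical inhibitors IkappaBβ and IkappaBε, gave no called difference. The Nfkbib log2 level was 7.38, 8.90 and 8.43 on T2M arrays, 9.33 and 9.64 on eosinophil-labelled, 8.92 and 9.20 on neutrophil-labelled and 9.14 and 8.88 on macrophage-labelled arrays. T2M arrays lay below the eosinophil-labelled and neutrophil-labelled arrays without overlap and overlapped the macrophage-labelled ones. T2M minus Eosinophils was -1.25 (SE 0.41, 95% interval -2.19 to -0.30), which did not pass over all genes (limma adjusted p = 0.152). Against Neutrophils the difference was -0.82 (adjusted p = 0.393) and against Macrophages -0.77 (adjusted p = 0.203), also not called by limma. The lowest of these arrays was T2M replicate 1, whose actin control difference of 0.61 was the largest, and without it T2M minus Eosinophils was -0.82.

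Nfkbie differed mostly through 1 array. Its log2 level was 11.05, 10.66 and 10.44 on T2M arrays, 11.59 and 10.93 on eosinophil-labelled, 8.41 and 10.38 on neutrophil-labelled and 10.23 and 9.87 on macrophage-labelled arrays. Neutrophils replicate 1 lay apart at 8.41, while replicate 2, which resembled the macrophage-labelled arrays in its correlations, lay near the lowest T2M array. Eosinophils minus Neutrophils was 1.87 (SE 0.58, limma adjusted p = 0.0925) and T2M minus Neutrophils was 1.32 (SE 0.53, adjusted p = 0.26). Without Neutrophils replicate 2 these became 2.85 (adjusted p = 0.00935) and 2.30 (adjusted p = 0.0274), and without replicate 1 they were 0.88 (adjusted p = 0.212) and 0.34 (adjusted p = 0.616). Eosinophils minus Macrophages was 1.21 (adjusted p = 0.183), T2M minus Macrophages 0.66 (adjusted p = 0.365) and T2M minus Eosinophils -0.55 (adjusted p = 0.723), none called by limma. The second probe set of Nfkbie, 1431843_a_at, put T2M lowest (mean 9.15, against 10.57 in Eosinophils, 9.47 in Neutrophils and 9.91 in Macrophages), so the direction of T2M minus Macrophages turned with the probe set.

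Rela, which encodes p65, the main transactivating subunit of the classical dimer, had the widest span of label means in the family but gave no call, and its arrays spread widely within T2M and Eosinophils. Its log2 level was 5.63, 8.04 and 7.83 on T2M arrays, 8.46 and 10.23 on eosinophil-labelled, 7.94 and 8.73 on neutrophil-labelled and 9.51 and 9.11 on macrophage-labelled arrays. Every T2M array lay below every eosinophil-labelled and macrophage-labelled array, and the T2M and neutrophil-labelled arrays overlapped. Means were 7.17 ± 1.33 (SD, n = 3), 9.34 ± 1.25, 8.34 ± 0.56 and 9.31 ± 0.29 (n = 2 each). T2M minus Eosinophils was -2.18 (SE 0.77, 95% interval -3.94 to -0.42, limma adjusted p = 0.179) and T2M minus Macrophages -2.14 (SE 0.77, 95% interval -3.91 to -0.38, adjusted p = 0.0879). T2M minus Neutrophils was -1.17 (limma adjusted p = 0.544), and Eosinophils and Macrophages differed by 0.03 with a 95% interval of -1.90 to 1.96. The lowest array of T2M and of Eosinophils was replicate 1, and on both arrays the actin control difference was raised (0.61 and 0.54). Without both of these arrays T2M minus Eosinophils was -2.29 (limma adjusted p = 0.0436) and T2M minus Macrophages was -1.38 (adjusted p = 0.0397), both called. Without T2M replicate 1 alone they were -1.41 (adjusted p = 0.246) and -1.38 (adjusted p = 0.12).

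Relb, the subunit that pairs with p52 in the alternative pathway and is prominent in dendritic cells, was the member whose highest mean was on macrophage-labelled arrays. The Relb log2 level was 6.03, 6.55 and 7.00 on T2M arrays, 6.73 and 8.62 on eosinophil-labelled, 6.88 and 7.75 on neutrophil-labelled and 8.45 and 8.09 on macrophage-labelled arrays. All T2M arrays lay below the macrophage-labelled ones, and the other labels overlapped T2M. T2M minus Macrophages was -1.74 (SE 0.56, 95% interval -3.01 to -0.46), which did not pass (limma adjusted p = 0.0648). This difference was called without Eosinophils replicate 1 or 2 (adjusted p = 0.0255 in each fit), arrays that enter it only through the shared spread, and was -1.49 without both arrays with raised actin differences (adjusted p = 0.0405). T2M minus Eosinophils was -1.15 (adjusted p = 0.354) and T2M minus Neutrophils -0.79 (adjusted p = 0.584). The 8 dendritic cell markers were also highest on the macrophage-labelled arrays, and their part in the Relb values was not tested.

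Rel encodes c-Rel, a subunit of lymphoid and myeloid cells, and Nfkb2 the precursor of p52; neither gave a called difference. The level of Rel was 10.41, 11.65 and 10.74 on T2M arrays, 10.71 and 11.49 on eosinophil-labelled, 9.34 and 11.18 on neutrophil-labelled and 10.09 and 9.99 on macrophage-labelled arrays (log2). T2M and eosinophil-labelled arrays all lay above the macrophage-labelled ones, while the neutrophil-labelled replicates lay on both sides of them. T2M exceeded Macrophages by 0.89 (SE 0.57, limma adjusted p = 0.269) and Eosinophils exceeded them by 1.06 (SE 0.62, adjusted p = 0.262), neither called. Nfkb2 had log2 levels of 7.64, 9.72 and 9.21 on T2M arrays, 8.95 and 10.33 on eosinophil-labelled, 8.92 and 9.17 on neutrophil-labelled and 9.54 and 9.20 on macrophage-labelled arrays. Its labels overlapped throughout, apart from the narrow gap between the neutrophil-labelled and macrophage-labelled arrays. T2M minus Eosinophils, the widest difference of Nfkb2, was -0.79 with a 95% interval of -2.20 to 0.62 (limma adjusted p = 0.632). Its second probe set, 1429128_x_at, had means of 8.57 in T2M, 8.60 in Eosinophils, 8.83 in Neutrophils and 8.01 in Macrophages. T2M replicate 1 was the lowest T2M array for Nfkb2, Rel, Rela, Relb, Nfkbia and Nfkbib, and the highest for Nfkbie and Tnfaip3.

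Between T2M and eosinophil-labelled cells, all 9 genes were lower in T2M, with a median difference of -0.63 against 0.06 over all genes. None was called by limma over 1 probe set per gene, and all 19 member probe sets had the same sign. Shares of all genes or probe sets by sign were not computed for this or the other comparisons. Against Neutrophils 5 members were higher and 4 lower in T2M (median 0.33, all genes -0.03), and against Macrophages likewise 5 and 4 (median 0.60, all genes 0.18). Eosinophils lay above Neutrophils for all 9 members (median 0.91, all genes -0.07) and above Macrophages for 8 (median 1.06, all genes 0.18). Neutrophils minus Macrophages had a median of 0.04, against 0.17 over all genes. Neutrophil markers were highest on the same eosinophil-labelled arrays (11.42 to 11.91), and their part in these values was not tested.

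The rest of the pathway was described through 5 lists, of which 103 of 113 genes were measured. The lists were chosen with earlier results of these data known. Their counts beside the shares of all genes are therefore descriptions and not independent tests. Among 20 receptors that signal to NF-kappaB, 8 were called lower in T2M than in Eosinophils, 0 higher and 12 neither (median -1.67, all genes 0.06, with 4.46% of all genes called). The largest called differences in limma were of Il1rap, the accessory chain of the IL-1 and IL-33 receptors (-3.52, adjusted p = 0.0245), and of the Toll-like receptor genes Tlr6 (-2.61, adjusted p = 0.00239) and Tlr4 (-2.60, adjusted p = 0.00915). Tlr1, at -3.07, did not pass (adjusted p = 0.0534). Against Neutrophils (2.82% of all genes called) 1 receptor gene was lower, Tnfrsf11a, which encodes RANK (-2.09, limma adjusted p = 0.0269). Compared with Macrophages, T2M cells had 4 receptor genes higher and 7 lower (median -0.50, all genes 0.18, with 17.2% called). They included Il18rap, the IL-18 receptor accessory chain (2.60, limma adjusted p = 0.00142), Tlr1 (-3.65, adjusted p = 0.0132) and Tnfrsf11a (-2.21, adjusted p = 0.00637). The T2M mean of Tnfrsf11a was 5.28, below the median of all values (5.59), so the size of its differences is uncertain.

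Of 20 adaptors and ubiquitin ligases, 3 were called lower in T2M than in Eosinophils and 0 higher (median -0.29, 4.46% of all genes called). These were Irak2 (-2.06, limma adjusted p = 0.0274), a kinase of the MyD88 complex, the ligase gene Peli1 (-1.77, adjusted p = 0.0318) and the adaptor gene Tirap (-1.64, adjusted p = 0.0471), while Myd88 itself did not pass (-1.56, adjusted p = 0.0506). Against Neutrophils (2.82% called) 2 were higher: Irak3, an inhibitory member of the IRAK family (2.68, limma adjusted p = 0.0401), and Birc3, which encodes the ligase cIAP2 (1.37, adjusted p = 0.0386). Compared with Macrophages, 3 were higher in T2M and 5 lower (median -0.18, 17.2% called), among them Irak3 (1.86, adjusted p = 0.0455), Rbck1, a component of the linear ubiquitin ligase (-2.30, adjusted p = 0.0169), and Traf5 (-2.14, adjusted p = 0.0144), all from limma. Among 11 genes of IKK subunits, upstream kinases and their partners, 1 was called against Eosinophils (4.46% of all genes) and 1 against Macrophages (17.2%). In T2M, Ikbke, an IKK-related kinase, was lower than in Eosinophils (-2.51, limma adjusted p = 0.00678) and Tab1, a partner of TAK1, was lower than in Macrophages (-1.07, adjusted p = 0.037), with 0 called against Neutrophils. The T2M mean of Tab1 was 5.51, just below the median of all values (5.59).

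Of 18 other inhibitors and deubiquitinases, 3 were lower in T2M than in Eosinophils and 0 higher (median -0.59, 4.46% of all genes called). These were Rnf11, a partner of A20 (-2.44, limma adjusted p = 0.00831), Nfkbid, a further nuclear IkappaB (-1.59, adjusted p = 0.0396), and Zc3h12a, which encodes the RNase Regnase-1 (-1.52, adjusted p = 0.026). Against Neutrophils 2 were higher and 2 lower (2.82% called). They included the deubiquitinase genes Cyld (2.18, limma adjusted p = 0.0117) and Otud7b (2.02, adjusted p = 0.0466), both higher in T2M, and Otulin (-2.28, adjusted p = 0.0445), which was lower. T2M against Macrophages gave 3 higher and 5 lower (median 0.02, 17.2% called), with Otud7b at 3.51 (limma adjusted p = 0.0019), Otulin at -3.05 (adjusted p = 0.00498) and the ligase gene Itch at -2.05 (adjusted p = 0.0313). Otud7b lay at 5.40 and 5.31 on the macrophage-labelled arrays, below the median of all values (5.59), so the size of that difference is uncertain.

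Among 34 known NF-kappaB targets, T2M cells had 19 above Macrophages and 0 below (median 1.27, all genes 0.18, with 17.2% of all genes called and 6.53% called higher). Called genes included the cytokine genes Il1a (log2 difference 6.66, limma adjusted p = 0.000139) and Il6 (6.49, adjusted p = 0.000673), and Clec4e, which encodes the receptor Mincle (5.09, adjusted p = 0.000139). On the macrophage-labelled arrays Il1a (3.91 and 3.02) and Il6 (3.63 and 3.66) lay below the median of all values (5.59), as did Clec4e on replicate 2 (5.49, and 6.43 on replicate 1). Background was not measured for these values, so the size of such differences is uncertain and they are not ranked. The Il6 log2 level was 10.63, 10.06 and 9.73 on T2M arrays, 7.76 and 6.40 on eosinophil-labelled, 8.24 and 10.19 on neutrophil-labelled and 3.63 and 3.66 on macrophage-labelled arrays. Il6 was thus higher in T2M than in Eosinophils (3.06, limma adjusted p = 0.0288), unlike Nfkbiz, whose mean was higher in Eosinophils, though this Il6 call was lost in 6 of the 9 leave-one-out fits (differences of 2.38 to 3.74). Set against Eosinophils, T2M cells had 2 targets higher and 10 lower (median -0.82, 4.46% of all genes called), among them Il23a (-4.81, limma adjusted p = 0.00146) and Tnf (-3.02, adjusted p = 0.00192). The Tnf log2 level was 7.89, 7.75 and 7.78 on T2M arrays against 10.52 and 11.14 on eosinophil-labelled arrays, with 6.88 and 7.52 on neutrophil-labelled and 7.59 and 7.44 on macrophage-labelled arrays. Against Neutrophils (2.82% called) 1 target was higher, Il1a (2.14, limma adjusted p = 0.0259), and 1 lower, Il1b (-0.96, adjusted p = 0.0457). Eosinophils had 23 targets higher and 0 lower than Macrophages (17.4% of all genes called), and Neutrophils 12 higher and 0 lower (2.26%). Of 34 pathway calls with T2M named by the rule, 10 were kept when each array was left out in turn: Ikbke, Tlr6, Il23a and Tnf against Eosinophils, Cyld against Neutrophils, and Otud7b, Il18rap, Il1a, Il6 and Clec4e against Macrophages. The other 24 ended in 1 to 9 of the 9 fits. Il1b against Neutrophils ended in all 9, and Birc3 and Otud7b against Neutrophils in 8.

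**Figure D5:**
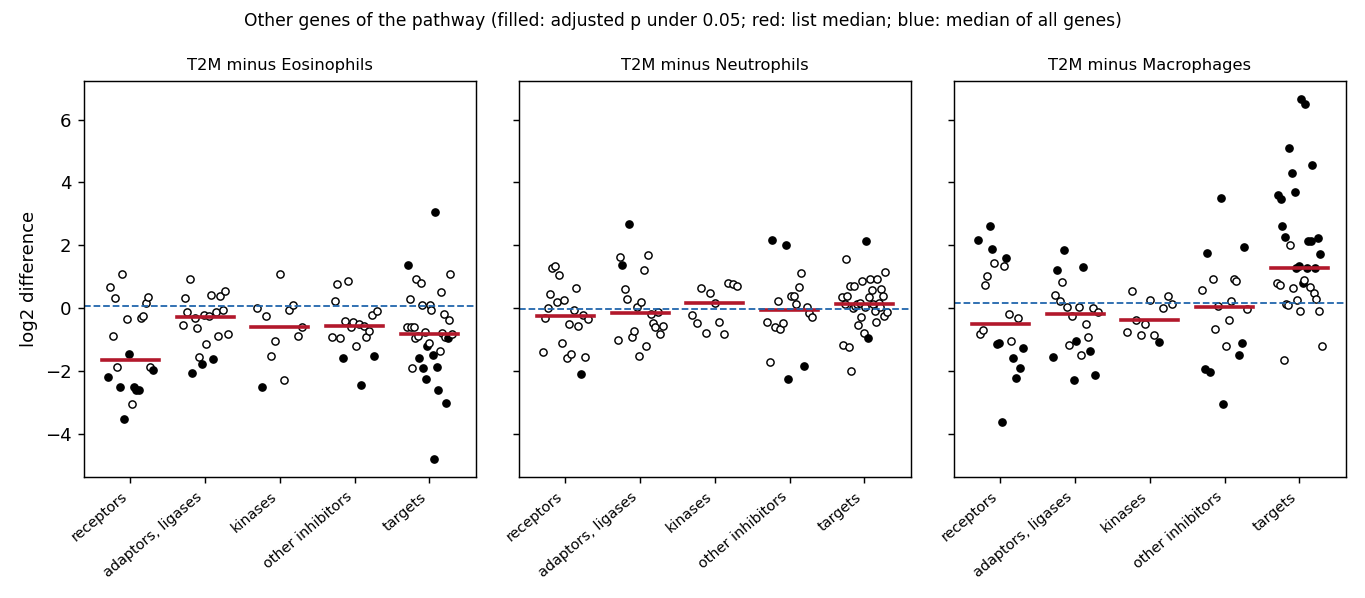
Log2 differences of the measured genes of 5 pathway lists in the 3 comparisons with T2M, 1 point per gene, filled where the limma adjusted p was under 0.05, with the list median as a solid line and the median of all genes as a dashed line. Targets lie mostly above 0 in T2M minus Macrophages (19 of 34 called higher, 0 lower) and receptors below 0 in T2M minus Eosinophils (8 of 20 called lower).

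Likeness between genes was measured as the root mean square difference of log2 levels over the 9 arrays after each gene was centred on its own mean. Among members the smallest values were 0.316 for Nfkbiz with Tnfaip3, 0.381 for Nfkb2 with Nfkbib and 0.387 for Nfkbia with Tnfaip3. Rela and Relb were at 0.588, and Rela with Nfkbiz, the least alike pair, at 1.56. For Rela the nearest genes outside the family were Cdk2ap2 (0.312), Rhog (0.313), Rac2 (0.322), Lsp1 (0.349) and Il10ra (0.377). Like Rela, each of these was lowest among T2M arrays on replicate 1, and lower on Eosinophils replicate 1 than on replicate 2. Those replicate 1 arrays had the raised actin difference, and its part in this likeness was not tested. For Nfkbiz the nearest were Washc2 (0.209), Zfp507 (0.217), Etohd2 (0.254), Fam122a (0.256) and 4933431E20Rik (0.261). These are descriptions over arrays that share 4 labels.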

How the data were processed

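Expression was measured on 9 arrays. The deposited values are log2 expression per probe set, and the submitters' processing notes name RMA, affy and limma without versions; settings and normalization between arrays are not given in the sources used here. A log2 difference of 1 was read as 2-fold. After 64 control probe sets were left out, 34945 of 45037 had 1 symbol in the platform annotation, 932 several and 9160 none; 34741 matched RefSeq GRCm38.p6 by gene ID, and 0 symbols changed. The brightest probe set of a gene, by its mean over the 9 arrays, stood for that gene.

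Label means were fitted on all 9 arrays in limma 3.58.1 under R 4.3.3 (lmFit, eBayes, two-sided tests), with 5 residual degrees of freedom. A call needed an adjusted p under 0.05 (Benjamini-Hochberg, 18193 genes, separately for each comparison). A second fit used all 45037 probe sets. The method was tested on simulated data. The number of arrays limits the precision: the median SE was 0.308 for comparisons with T2M and 0.337 for the others. Replicates are separate pools per the labels; where arrays share RNA, which was not tested, p-values measure technical spread.

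The members and gene lists were chosen with earlier results of these data known. Named pathway genes were, per list and T2M comparison, up to 3 called genes with the largest differences and the 1 uncalled gene with the largest; not all are printed. Il6 and Tnf array values were picked after their values were seen. Alternatives were another choice of probe set, array scaling, array weights, a trended and robust eBayes, leaving out dim genes, fitting only the compared arrays, averaged macrophage arrays, a replicate block and leaving out each array in turn. Leaving out both arrays with raised actin differences was added after the data were examined. Figures used matplotlib 3.10.9 in Python 3.11.15.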

Additional observations from a re-analysis of the deposited data

How the results depend on the processing

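Called members numbered 0 in T2M against Eosinophils, 0 in T2M against Neutrophils, 2 in T2M against Macrophages, 2 in Eosinophils against Neutrophils, 3 in Eosinophils against Macrophages, 0 in Neutrophils against Macrophages and 3 in the F test, in limma. With the probe set of largest variance these became 1, 1, 0, 1, 1, 0 and 1, since other probe sets then stand for Nfkbia, Nfkbiz and Tnfaip3. With the mean over probe sets, T2M against Eosinophils gave 1. Quantile normalization gave 1 for T2M against Neutrophils. Array weights gave 6 for T2M against Macrophages, 1 for Eosinophils against Neutrophils and 6 in the F test. With the macrophage-labelled arrays averaged into 1 sample, these were 0, 1 and 1. With only the compared arrays fitted, Eosinophils against Neutrophils gave 0. Without both arrays with raised actin differences, 1 eosinophil-labelled array remained. More members were then called in T2M against Eosinophils and T2M against Macrophages, and fewer in the F test. Leaving out each array in turn gave 0 in T2M against Eosinophils, 0 to 1 in T2M against Neutrophils (1 without Neutrophils replicate 2), 0 to 3 in T2M against Macrophages (0 without either macrophage-labelled array), 1 to 3 in Eosinophils against Neutrophils, 1 to 4 in Eosinophils against Macrophages, 0 to 1 in Neutrophils against Macrophages and 1 to 4 in the F test. The causes of these changes, beyond the probe sets or arrays used, were not tested.

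Directions turned for Nfkbie in T2M minus Macrophages (-0.047 with the mean over probe sets), for Nfkbiz in Neutrophils minus Macrophages (-0.19 with that mean and -1.11 with the probe set of largest variance) and for Rela in Eosinophils minus Macrophages (-0.0067 with arrays shifted to a common median, and -0.85 to 0.92 without each array in turn). None of these was called.

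The replicate 1 minus replicate 2 differences correlated at 0.51 between T2M and Eosinophils, and at -0.18 to 0.03 in the other comparisons. The replicate 1 arrays of T2M and Eosinophils both have the raised actin difference. Whether replicate numbers pair the samples was not tested. With the replicate block, Eosinophils against Neutrophils gave 1 called member, the F test 2, and the other comparisons 0, 0, 2, 3 and 0 in the order above.

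The count of all genes called also moved. Leaving out each array in turn, it ran from 192 to 1211 in T2M against Eosinophils (812 with all arrays), from 108 to 897 in T2M against Neutrophils (513), from 434 to 5070 in T2M against Macrophages (3123), from 710 to 1821 in Eosinophils against Neutrophils (1433), from 862 to 4320 in Eosinophils against Macrophages (3163) and from 75 to 3009 in Neutrophils against Macrophages (412). Array weights gave 1426, 53, 10163, 526 and 6400 in the first 5 of these, only the compared arrays gave 397, 0, 4988, 215, 5219 and 151, and averaged macrophage-labelled arrays gave 383, 108, 459, 762, 907 and 84. The replicate block gave 360, 43 and 1733 for the T2M comparisons and 263 for Neutrophils against Macrophages.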
